A study of Mus musculus with 30 samples.

Results

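The genes described here encode the main proteins of the basement membrane, the thin sheet of matrix on which epithelial cells sit. They are 4 laminin chains (Lama1, Lama5, Lamb1 and Lamc1), 2 type IV collagen chains (Col4a1 and Col4a2), 2 nidogens (Nid1 and Nid2), the heparan sulfate proteoglycan perlecan (Hspg2) and Sparc. They were chosen by name, and all 10 were measured among the 18194 genes with a named probe set. The platform annotation gives them 22 probe sets, of which 4 (1 each of Lama5, Lamb1, Nid1 and Sparc) read under 50 on every array. For 7 of the 10 genes there was more than 1 probe set, and the one with the highest mean stood for the gene.

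Mouse embryonic stem (ES) cells were taken at days 0, 2, 4, 6 and 8 after withdrawal of LIF, the cytokine that holds them undifferentiated, and total RNA was hybridised to 30 Affymetrix arrays. The Fl/Fl cells carry floxed alleles of Jmj (Jarid2) and are labelled wild type; each of the 5 days has 2 arrays. The cells labelled null carry Jmj (-/-) and have 3, 5, 5, 5 and 2 arrays at days 0, 2, 4, 6 and 8. The labels call the arrays biological replicates and do not name the clone, the strain or the use of feeder cells; the number of arrays limits the precision. Values are intensities on a linear scale, and array means lay between 331.8 and 363.6.

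The targeted gene did not separate the groups in the direction of the label. Jarid2, a partner of Polycomb repressive complex 2, read 319 to 3340 on the 10 Fl/Fl arrays (median 709.5) and 383 to 4082 on the 20 arrays labelled null (median 1350). Averaged over the days it was higher in the arrays labelled null by 0.57 on the log2 scale (SE 0.11, limma adjusted p = 0.001). The sources used here do not place its 3 probe sets against the deleted part, so this level does not check the label, and "null" below is the label's word. The arrays labelled null also fell into 3 sets by Eif2s3y, a Y-linked gene: 11 read 594 to 981 (high), 5 read 217 to 365 (middle) and 4 read 11 to 16 (near the floor), against 130 to 234 in Fl/Fl. Actin's 3′ control probe set, divided by its 5′ one, gave 1.29 to 1.43 in the high set and 1.48 to 2.04 on all other arrays. Values already seen defined these sets, which are no groups of the study. Results are given with and without them below.

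Laminins are cross-shaped trimers of an alpha, a beta and a gamma chain that bind cell receptors and polymerise at the cell surface. Type IV collagen forms a second, covalently linked network, and nidogens and perlecan tie the networks together. Sparc is a secreted collagen-binding glycoprotein. In the early mouse embryo these proteins are made by the primitive endoderm and its derivatives, with parietal endoderm as a rich source, and embryoid bodies of ES cells lay down a basement membrane beneath their outer endoderm layer.

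RefSeq's promoter table (mouse build GRCm38.p6) matched 7 of the 10 genes. Lama1, Lamc1 and Nid2 were not matched. The type IV collagen pair is shown because both genes start within 1 short stretch on chromosome 8. Col4a2 starts at position 11312805 on the plus strand and Col4a1 at 11312826 on the minus strand, so 22 bases span both starts, and the 300-base windows of the table overlap by 78 identical bases. These 22 bases lie downstream of both starts, unlike the other stretches shown, and the annotated Col4a1 gene reaches to 11312889. The bases upstream of Nid1, Hspg2 and Sparc are shown for comparison, since their signals also rose in both genotypes. Lamb1 rose too and was matched but is not shown. The part of its upstream bases outside the annotated gene holds 0 GC boxes and 1 CCAAT box. Capitals mark a GC box (GGGCGG) or a CCAAT box on either strand, so that CCGCCC and ATTGG are their reverse forms. The stretches are chr8:11312805-11312826 (plus strand), chr13:13437352-13437601 (plus strand), chr4:137468553-137468750 (plus strand, the part of the window outside the annotated gene) and chr11:55420081-55420330 (minus strand).
Col4a1 and Col4a2, between the starts: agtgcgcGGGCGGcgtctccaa
Nid1, upstream: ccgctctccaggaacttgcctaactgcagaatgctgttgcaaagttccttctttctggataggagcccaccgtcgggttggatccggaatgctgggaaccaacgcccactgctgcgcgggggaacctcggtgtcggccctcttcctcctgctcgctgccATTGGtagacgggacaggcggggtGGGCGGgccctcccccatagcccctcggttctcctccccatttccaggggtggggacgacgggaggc
Hspg2, upstream: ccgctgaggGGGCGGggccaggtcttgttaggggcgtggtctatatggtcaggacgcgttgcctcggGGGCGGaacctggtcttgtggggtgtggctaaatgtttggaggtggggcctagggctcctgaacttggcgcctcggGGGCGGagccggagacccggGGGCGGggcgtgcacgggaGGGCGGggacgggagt
Sparc, upstream: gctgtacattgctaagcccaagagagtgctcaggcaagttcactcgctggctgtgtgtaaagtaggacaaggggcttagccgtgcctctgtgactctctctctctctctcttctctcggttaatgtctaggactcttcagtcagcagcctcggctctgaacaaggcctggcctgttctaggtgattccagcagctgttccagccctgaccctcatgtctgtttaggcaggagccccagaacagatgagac
The 22 bases between the collagen starts hold 1 GC box. The 250 bases upstream of the Col4a2 start, not shown, hold 2 GC boxes and 1 CCAAT box. Those of Col4a1, partly inside the annotated gene, hold 0 GC boxes and 1 CCAAT box. The Hspg2 stretch holds 5 GC boxes and no CCAAT box, that of Nid1 holds 1 GC box and 1 CCAAT box, and that of Sparc holds 0 of either. Of the 250 upstream bases of all 32851 promoters in the table, 32.7% hold a GC box, 33.8% a CCAAT box and 12.4% a TATAAA. A match of these letters is a description only.

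After LIF withdrawal, 6 of the 10 genes rose by day 8 in both genotypes: Col4a1, Col4a2, Sparc, Nid1, Hspg2 and Lamb1. Day 8 against day 0 called 6 higher and 0 lower in Fl/Fl, where 33.6% of all genes passed and 15.0% were higher. In the arrays labelled null the count was again 6 higher and 0 lower, where 33.4% of genes passed and 14.9% were higher. The tests were limma's moderated test with Benjamini-Hochberg adjustment over all 18194 genes, at an adjusted p under 0.05, on log2(intensity + 4). Folds are given on that scale, which shrinks the change of dim genes. Without the null array of day 8 replicate 2, the count in the arrays labelled null was 3. At the earlier days 1 gene was lower in Fl/Fl at day 2 (3.15% of genes passed, 1.24% higher and 1.91% lower). At day 4 in Fl/Fl, 2 were higher and 1 lower (18.5%, 8.01% and 10.5%), and at day 6, 6 were higher (32.7%, 13.4% and 19.2%). In null 2 were lower at day 2 (5.41%, 2.40% and 3.02%), 2 higher and 2 lower at day 4 (14.7%, 6.36% and 8.34%), and 7 higher and 1 lower at day 6 (30.2%, 12.2% and 18.0%). Leaving out single arrays moved the day 2 count in Fl/Fl to between 0 and 2, and the day 6 count to between 4 and 6 in Fl/Fl and between 5 and 8 in null.

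Averaged over the 5 days, 8 of the 10 genes were lower in the arrays labelled null than in Fl/Fl and 0 were higher, where 23.2% of genes passed, 7.76% higher and 15.5% lower. The split over all genes depended on the scaling: 66.6% of the genes called were lower as deposited, 49.3% after quantile normalization and 19.2% with arrays centred on the 75th percentile, which called 56.6% of genes and moved the median of all genes to 0.11. Of the 10 genes 8 passed, all lower, under each of these scalings. Lamb1 and Nid2 did not pass. The calls of Lama5 and Lamc1 did not hold for their second-brightest probe set, while that of Lamb1 passed, as given below. The median difference of the 10 genes was -0.82 on the log2 scale, against 0 over all genes. The largest differences were those of Col4a2 (-1.91, SE 0.31, adjusted p = 0.000177) and Nid1 (-1.50, SE 0.22, adjusted p = 5.98e-05). Without the 11 null arrays of the high Eif2s3y set, 4 of the 10 passed (Col4a2, Nid1, Lama1 and Sparc), where 10.9% of genes passed. The middle set holds 1 null array per day, so its fit takes its spread from the Fl/Fl arrays and only sizes are given. With that set alone the averaged difference was -1.63 for Col4a2, -1.76 for Nid1, -0.71 for Lamb1 and -0.38 for Lama5.

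**Figure D1:**
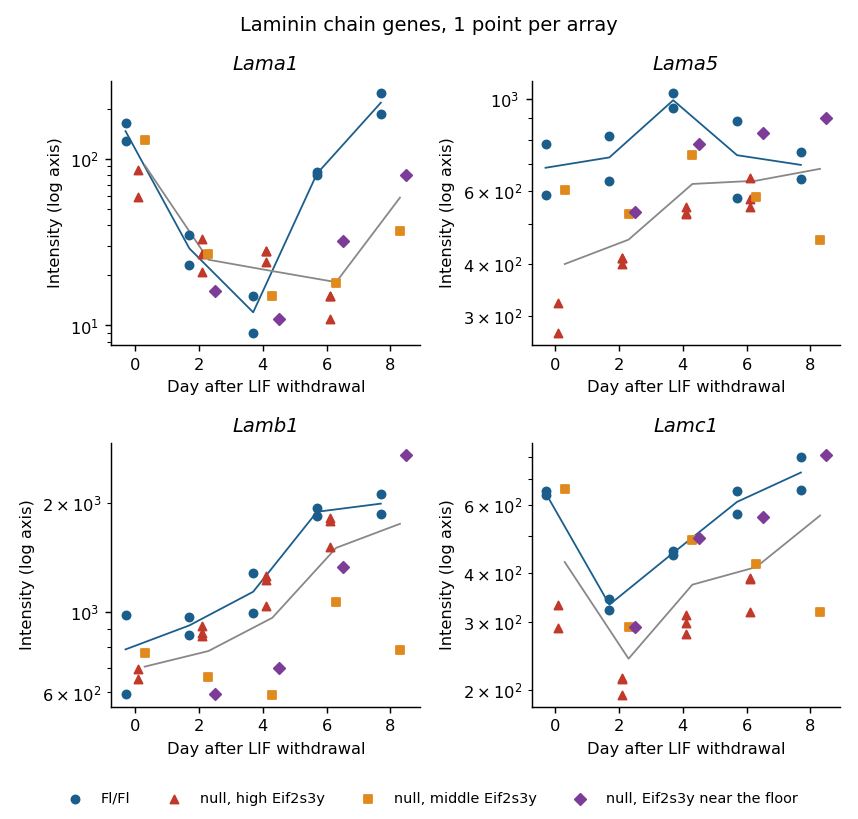
Intensity (log axis) of the 4 laminin chain genes against the day after LIF withdrawal, 1 point per array, shifted sideways by set, with lines through the mean of the 2 Fl/Fl arrays and of all null arrays of a day. Lama1 falls to 9 and 15 at day 4 in Fl/Fl and is back at 186 and 248 by day 8, above the 37 and 80 of the null arrays.

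Lama1 encodes the alpha chain of the laminin of the early embryo. In Fl/Fl its intensities were 165 and 128 at day 0, 23 and 35 at day 2, 9 and 15 at day 4, 80 and 83 at day 6, and 186 and 248 at day 8. The arrays labelled null read 130, 59 and 86 at day 0, then 16 to 33 at day 2 (median 27) and 11 to 28 at day 4 (median 24). They stayed low at day 6, at 11 to 32 (median 15), and read 37 and 80 at day 8. The course was thus a dip and a return in Fl/Fl, with a low stretch that ran on through day 6 in the arrays labelled null. Against day 0, Fl/Fl fell by 2.20 at day 2 (SE 0.43, adjusted p = 0.00452) and by 3.25 at day 4 (SE 0.43, adjusted p = 1.82e-05), and the day 8 difference of 0.55 did not pass (adjusted p = 0.385). The arrays labelled null fell by 1.70, 1.92 and 2.11 at days 2, 4 and 6 (adjusted p = 0.00168, 0.000194 and 2.56e-05). The genotypes overlapped at days 0, 2 and 4. At day 6 every null array lay below both Fl/Fl arrays (log2 difference -2.01, SE 0.36, adjusted p = 0.00102), and so did both at day 8 (-1.90, SE 0.43, adjusted p = 0.0161). Null readings of 11 to 32 lie near the floor, and with a pseudocount of 32 the day 6 difference was -1.19 (adjusted p = 0.00062). The F test of whether the genotype difference changed between days passed for Lama1 (adjusted p = 0.0104). That call ended without Fl/Fl day 4 replicate 1 (adjusted p = 0.0516), and the day 8 call ended without null day 8 replicate 1 (0.198) or Fl/Fl day 8 replicate 2 (0.189). The Fl/Fl day 2 call ended without Fl/Fl day 2 replicate 1 (0.0734) or Fl/Fl day 0 replicate 1 (0.0526).

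Lama5 encodes the alpha chain that is widespread in later basement membranes. Its Fl/Fl intensities were 589 and 779 at day 0, 634 and 815 at day 2, 955 and 1036 at day 4, 579 and 888 at day 6, and 644 and 746 at day 8. No later day passed against day 0 in Fl/Fl. Null arrays read 606, 323 and 273 at day 0, 400 to 535 at day 2 (median 415), 528 to 780 at day 4 (median 551), 551 to 829 at day 6 (median 583), and 459 and 901 at day 8. All 5 lay below both Fl/Fl arrays at days 2 and 4, and the genotypes overlapped at days 0, 6 and 8. Averaged over days the difference was -0.50 (SE 0.13, adjusted p = 0.00894), with 18 of 20 null arrays below the Fl/Fl mean of their day. Within null, day 6 exceeded day 0 by 0.73 (SE 0.24, adjusted p = 0.0246), a call that ended without null day 0 replicate 3 (0.173), null day 0 replicate 2 (0.103) or null day 6 replicate 2 (0.063). Without the high set the averaged difference was -0.23 (adjusted p = 0.388).

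Lamb1 encodes the beta chain that most early laminins share. Fl/Fl intensities were 593 and 985 at day 0, 971 and 867 at day 2, 997 and 1280 at day 4, 1843 and 1943 at day 6, and 1863 and 2125 at day 8. Those labelled null read 652 to 772 at day 0, 595 to 914 at day 2 (median 861), 591 to 1261 at day 4 (median 1043), 1067 to 1819 at day 6 (median 1516), and 787 and 2721 at day 8. The 2 null arrays of day 8 thus lay on either side of both Fl/Fl arrays. Lamb1 rose by 1.38 in Fl/Fl from day 0 to day 8 (SE 0.42, adjusted p = 0.0145) and by 1.05 in null (SE 0.38, adjusted p = 0.04). The Fl/Fl call ended without Fl/Fl day 0 replicate 1 (0.164) or Fl/Fl day 8 replicate 2 (0.0856), and the null call without null day 8 replicate 2, where the rise was 0.16 (0.947), or without any of the 3 null arrays of day 0 (0.0563 to 0.084). The rises at day 6, of 1.30 in Fl/Fl (adjusted p = 0.0211) and 1.06 in null (0.0116), had the first of these limits too: that in Fl/Fl ended without Fl/Fl day 0 replicate 1 (0.205) or either Fl/Fl array of day 6 (0.0963 and 0.0736). The averaged genotype difference of -0.29 did not pass (SE 0.17, adjusted p = 0.238). With the middle set alone, 1 null array per day, it was -0.71. The second-brightest Lamb1 probe set gave -0.39 (SE 0.11, adjusted p = 0.0116 over all probe sets with 1 gene).

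Lamc1 encodes the gamma chain of nearly all laminins. In Fl/Fl it read 637 and 655 at day 0, 343 and 321 at day 2, 458 and 446 at day 4, 570 and 655 at day 6, and 657 and 802 at day 8. Null arrays read 663, 332 and 289 at day 0, 194 to 291 at day 2 (median 215), 279 to 495 at day 4 (median 312), 317 to 561 at day 6 (median 390), and 318 and 811 at day 8. The lowest group in each genotype was day 2, but none of the 8 contrasts with day 0 passed; the day 2 differences were -0.95 in Fl/Fl (SE 0.38, adjusted p = 0.232) and -0.74 in null (SE 0.28, adjusted p = 0.155). Averaged over days Lamc1 was lower in the arrays labelled null by 0.51 on the log2 scale (difference -0.51, SE 0.15, adjusted p = 0.0183). That call ended without null day 8 replicate 1 (-0.38, adjusted p = 0.0639). Without the high set the difference was -0.17 (adjusted p = 0.555): all 11 high-set arrays lay below the Fl/Fl mean of their day, against 3 of 5 in the middle set and 2 of 4 near the floor.

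**Figure D2:**
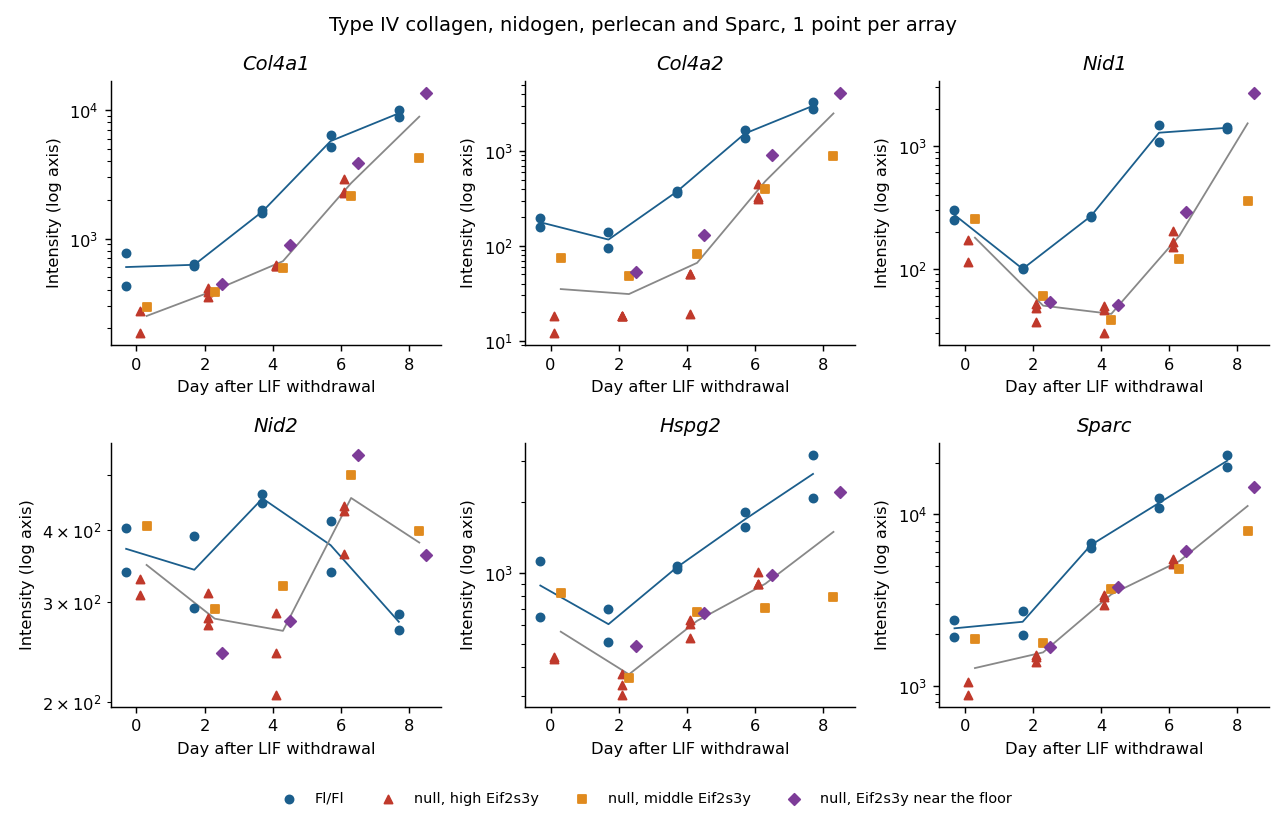
Intensity (log axis) of Col4a1, Col4a2, Nid1, Nid2, Hspg2 and Sparc against the day after LIF withdrawal, 1 point per array, shifted sideways by set, with lines through the means of Fl/Fl and of all null arrays. Col4a1 climbs to 8885 and 9970 in Fl/Fl at day 8, where the null arrays read 4204 and 13548.

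Col4a1 and Col4a2, whose chains join in the common type IV collagen trimer, had the largest rises of the 10 genes by day 8 in both genotypes. Col4a1 in Fl/Fl read 430 and 771 at day 0, 616 and 635 at day 2, 1594 and 1654 at day 4, 5114 and 6353 at day 6, and 8885 and 9970 at day 8. In the arrays labelled null it read 292, 274 and 184 at day 0, 352 to 445 at day 2 (median 385), 594 to 889 at day 4 (median 615), 2152 to 3868 at day 6 (median 2291), and 4204 and 13548 at day 8. Every null array from day 0 to day 6 lay below both Fl/Fl arrays of its day, and at day 8 the pair straddled them. Col4a1 rose by 4.02 in Fl/Fl (SE 0.37, 16.2-fold, adjusted p = 5.26e-08) and by 4.92 in null (SE 0.34, 30.3-fold, adjusted p = 9.37e-10). Without null day 8 replicate 2 the rise in null was 4.08 (16.9-fold), and with the middle set alone 3.83. The rise had passed by day 4 in both, at 1.49 in Fl/Fl (adjusted p = 0.00761) and 1.41 in null (adjusted p = 0.000977), though the Fl/Fl call ended without Fl/Fl day 0 replicate 1 (0.127) or Fl/Fl day 4 replicate 2 (0.0512).

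Averaged over days, Col4a1 was 1.89-fold lower in the arrays labelled null (log2 difference -0.92, SE 0.15, adjusted p = 0.000152). By day it was lower at day 4 (-1.30, SE 0.31, adjusted p = 0.00863) and day 6 (-1.11, SE 0.31, adjusted p = 0.0257). The differences of -1.22 at day 0 (adjusted p = 0.0927), -0.66 at day 2 (0.515) and -0.32 at day 8 (0.87) did not pass. The day 4 call ended without either Fl/Fl array of that day (0.0879 and 0.0832). That of day 6 ended without Fl/Fl day 6 replicate 2 (0.301), Fl/Fl day 6 replicate 1 (0.096), or null day 6 replicates 4, 1 or 5 (0.0537, 0.0524 and 0.052). Without the high set the averaged difference was -0.80 (adjusted p = 0.057).

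Col4a2 rose in both genotypes as well. Fl/Fl read 159 and 196 at day 0, 94 and 139 at day 2, 384 and 361 at day 4, 1391 and 1673 at day 6, and 2754 and 3260 at day 8. In those labelled null it read 75, 12 and 18 at day 0, 18 to 53 at day 2 (median 18), 19 to 130 at day 4 (median 50), 309 to 916 at day 6 (median 401), and 897 and 4102 at day 8. Again the genotypes did not overlap from day 0 to day 6. Through day 4 the high-set arrays read 12 to 50 and the other null arrays 48 to 130. Col4a2 rose by 4.05 in Fl/Fl (SE 0.79, 16.6-fold, adjusted p = 0.000348) and by 5.99 in null (SE 0.72, adjusted p = 1.36e-06). The size in null is loose, since it starts from readings of 12 and 18 near the floor: it was 4.99 with a pseudocount of 32, 4.89 without null day 8 replicate 2 and 3.51 with the middle set alone. The 2 rises did not differ past the threshold (difference 1.93, SE 1.07, adjusted p = 0.577). Averaged over days the difference of -1.91 became -1.50 with a pseudocount of 32 and -1.22 without the high set (adjusted p = 0.0261), where that of Nid1 was the larger (-1.33). At day 4 the difference was -2.65 (SE 0.66, adjusted p = 0.0105), a call that ended without Fl/Fl day 4 replicate 1 (0.107) or replicate 2 (0.0847). At day 0 it was -2.58 (SE 0.72, adjusted p = 0.0909). Over the 10 group means the log2 courses of Col4a1 and Col4a2, which share the start region shown above, correlated at 0.97, as did those of Col4a1 and Sparc at 0.98; the groups share the same arrays.

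Nid1 encodes the nidogen that links laminin to type IV collagen. Fl/Fl read 251 and 299 at day 0, 101 and 99 at day 2, 271 and 266 at day 4, 1496 and 1071 at day 6, and 1387 and 1428 at day 8. Null arrays gave 253, 113 and 172 at day 0, 37 to 60 at day 2 (median 52), 30 to 51 at day 4 (median 46), 121 to 290 at day 6 (median 167), and 359 and 2700 at day 8. Between days 4 and 6 the Fl/Fl arrays had passed their day 0 level, while the null arrays of day 6 were about where they began. Against day 0 the rise was 2.19 at day 6 in Fl/Fl (SE 0.56, adjusted p = 0.00458) and 0.07 in null (SE 0.41, adjusted p = 1). In null it fell at day 2 (-1.70, adjusted p = 0.0133) and day 4 (-1.91, adjusted p = 0.00235); the first call ended without null day 0 replicate 1 (0.0915). At day 8 both had risen, by 2.34 in Fl/Fl (adjusted p = 0.00223) and 2.51 in null (adjusted p = 0.000562). Without null day 8 replicate 2 the rise in null was 1.06 (0.0593).

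The genotype difference of Nid1 was -2.56 at day 4 (SE 0.47, 5.89-fold lower, adjusted p = 0.000871) and -2.80 at day 6 (SE 0.47, 6.96-fold lower, adjusted p = 0.00049). At day 8 it was -0.51 (SE 0.56, adjusted p = 0.835), and without the floor-set array of that day, which read 2700, it was -1.96. Null readings of 30 to 51 at day 4 lie near the floor. With a pseudocount of 32 the limma differences were -2.01 at day 4 (adjusted p = 0.00334) and -2.62 at day 6 (adjusted p = 0.000366). The F test of change between days did not pass (adjusted p = 0.0891). It passed in 2 of the 30 fits that left out 1 array, among them the fit without null day 8 replicate 1, and without the floor set. Both named fits leave 1 null array at day 8, on opposite sides of Fl/Fl. The difference of that array from the Fl/Fl mean was 0.94 in the first and -1.96 in the second.

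Nid2, the second nidogen, had a narrow range and a different course. Fl/Fl read 404 and 338 at day 0, 292 and 390 at day 2, 463 and 446 at day 4, 338 and 415 at day 6, and 268 and 285 at day 8. Its null arrays read 407, 308 and 328 at day 0, 244 to 311 at day 2 (median 281), 206 to 319 at day 4 (median 277), 363 to 542 at day 6 (median 441), and 399 and 362 at day 8. Null arrays were all below Fl/Fl at day 4 and both above it at day 8. The day 4 difference passed (-0.78, SE 0.16, 1.71-fold lower, adjusted p = 0.00246), and that of day 8 did not (0.45, SE 0.19, adjusted p = 0.245). The F test passed (adjusted p = 0.0142), but not without Fl/Fl day 4 replicate 1 (0.0666) or replicate 2 (0.0521). Within null, day 6 exceeded day 0 by 0.38 (SE 0.14, adjusted p = 0.0416). This call ended in 6 of the 30 fits that left out 1 array: without null day 0 replicates 2 or 3 (0.175 and 0.126) and without null day 6 replicates 2, 1, 3 or 5 (0.103, 0.0846, 0.0566 and 0.0519).

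Hspg2 encodes perlecan, which carries heparan sulfate chains that bind growth factors. Fl/Fl read 648 and 1123 at day 0, 511 and 701 at day 2, 1042 and 1072 at day 4, 1565 and 1822 at day 6, and 2099 and 3194 at day 8. On null arrays it read 821, 429 and 439 at day 0, 303 to 487 at day 2 (median 357), 530 to 682 at day 4 (median 633), 709 to 1008 at day 6 (median 903), and 791 and 2207 at day 8. All 20 null arrays lay below the Fl/Fl mean of their day, and no null array overlapped Fl/Fl at days 2, 4 and 6. The averaged difference was -0.80 (SE 0.15, 1.74-fold lower, adjusted p = 0.000469). It did not pass on any single day, where differences ran from -0.66 at day 0 to -0.97 at day 8 (adjusted p = 0.064 at day 6). Hspg2 rose by 1.60 in Fl/Fl at day 8 (SE 0.37, adjusted p = 0.00162) and by 1.29 in null (SE 0.33, adjusted p = 0.00456), the latter 0.56 without null day 8 replicate 2 (0.308). The day 6 rises, 0.98 in Fl/Fl (adjusted p = 0.0445) and 0.73 in null (0.0433), stood near the threshold: the first ended in 15 of the 30 fits that dropped 1 array (adjusted p up to 0.395, with Fl/Fl day 0 replicate 1 dropped). In null the call ended in 10, at up to 0.183 without null day 0 replicate 2. Without the high set the averaged difference was -0.64 (adjusted p = 0.0852).

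Sparc rose in both genotypes and lay lower in the arrays labelled null on each day, though past the threshold at days 4 and 6 alone. Its Fl/Fl arrays read 1918 and 2405 at day 0, 1975 and 2744 at day 2, 6377 and 6836 at day 4, 12432 and 10821 at day 6, and 18762 and 22205 at day 8. With the null label it read 1865, 885 and 1053 at day 0, 1377 to 1771 at day 2 (median 1507), 2949 to 3777 at day 4 (median 3380), 4820 to 6066 at day 6 (median 5207), and 8019 and 14311 at day 8. Sparc was the one gene of the 10 whose null arrays lay below both Fl/Fl arrays on all 5 days. On single days this held for 8.39% to 16.8% of all genes, and the share for all 5 days was not counted. It rose by 3.25 in Fl/Fl (SE 0.26, 9.49-fold, adjusted p = 8.88e-09) and by 3.15 in null (SE 0.24, 8.88-fold, adjusted p = 3.12e-09), so the rises differed by -0.10 (SE 0.36, adjusted p = 1). That likeness depended on the arrays, since the high set holds 2 null arrays of day 0 and 0 of day 8. Without the high set the rise in null was 2.52 and the rises differed by -0.73. With the middle set alone these values were 2.10 and -1.14. The averaged genotype difference was -0.89 (SE 0.10, 1.85-fold lower, adjusted p = 4.87e-06). It passed at day 4 (-0.96, SE 0.22, adjusted p = 0.00606) and day 6 (-1.13, SE 0.22, adjusted p = 0.002), with -0.93 at day 8 (SE 0.26, adjusted p = 0.0633). The day 4 call ended without Fl/Fl day 4 replicate 2 (0.0808) or replicate 1 (0.0543), and that of day 6 without Fl/Fl day 6 replicate 1 (0.0513). Without the high set the averaged difference was -0.70 (adjusted p = 0.00686).

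**Figure D3:**
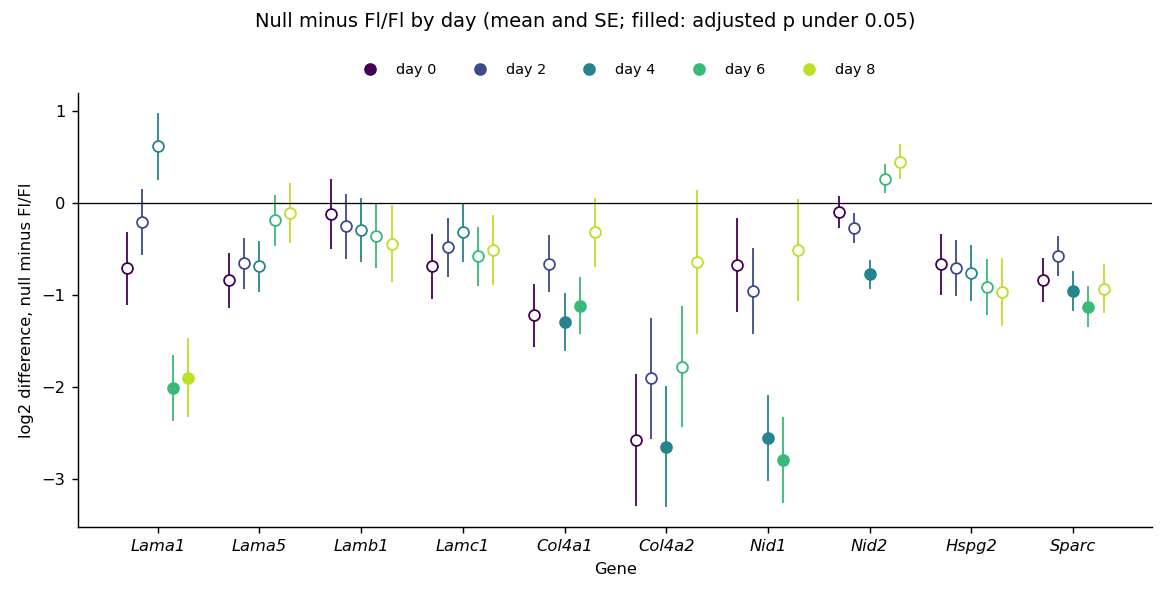
Difference between null and Fl/Fl on the log2(intensity + 4) scale for each gene, 1 point per day with its SE, filled where the limma adjusted p was under 0.05. Filled points lie at days 4 and 6 for Col4a1, Nid1 and Sparc, at day 4 for Col4a2 and Nid2, and at days 6 and 8 for Lama1.

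On single days, the genes that passed were all lower in the arrays labelled null. At day 4 they were 5 of 10 (Col4a1, Col4a2, Nid1, Nid2 and Sparc), where 11.6% of genes passed, 4.18% higher and 7.43% lower. At day 6 they were 4 of 10 (Lama1, Col4a1, Nid1 and Sparc; 9.93% of genes, 3.47% higher and 6.46% lower), and at day 8 Lama1 alone (2.51%, 0.709% and 1.80%). At day 0 the count was 0 (1.18% of genes, 0.247% higher and 0.929% lower) and at day 2 it was 0 (0.621%, 0.104% and 0.517%); limma's unadjusted p was under 0.05 for 4 and 5 genes, all lower, where 8.65% and 6.74% of all genes were lower at that level. All null arrays lay below both Fl/Fl arrays for 3, 7, 7, 8 and 2 of the 10 genes at days 0, 2, 4, 6 and 8. The same held for 9.90%, 8.39%, 14.3%, 14.7% and 16.8% of all genes. All lay above both for 0 of the 10 genes at days 0, 2, 4 and 6 (5.44%, 4.51%, 10.4% and 10.2% of all genes) and for 1, Nid2, at day 8 (8.48%). Single arrays moved these counts: without either Fl/Fl array of day 4 the day 4 count was 2, without Fl/Fl day 6 replicate 1 the day 6 count was 2, and without null day 0 replicate 1 the day 0 count was 3. At day 8 the count was 0 without null day 8 replicate 1 or Fl/Fl day 8 replicate 2, and 6 without null day 8 replicate 2, where single null arrays are assumed to vary like the other groups.

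The change from day 0 to day 8 differed between the genotypes for 0 of 10 genes, where 1.09% of genes passed, 0.407% higher and 0.687% lower; 1 gene, Nid2, had an unadjusted p under 0.05 (10.7% of genes). The difference of the changes ran from -1.19 for Lama1 (SE 0.59) to 1.93 for Col4a2. The high set holds 2 null arrays of day 0 and 0 of day 8, so the changes in null compare unlike sets. The genotype difference changed between days by limma's F test for 2 of the 10, Lama1 and Nid2, where 4.94% of genes passed. Leaving out single arrays moved this count. It was lower without Fl/Fl day 4 replicate 1 or replicate 2 and higher without null day 8 replicate 1, and each of these fits leaves 1 array in a group.

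**Figure D4:**
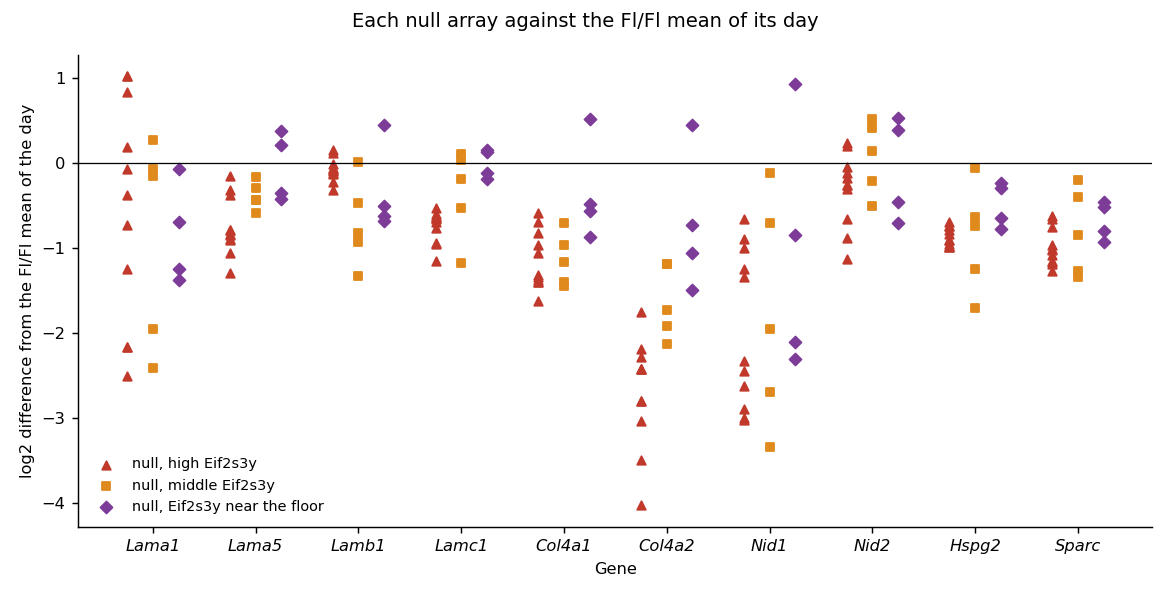
Log2(intensity + 4) of each of the 20 null arrays minus the Fl/Fl mean of its day, per gene, in the 3 sets formed by Eif2s3y. Col4a2 lies between -4.03 and -1.76 in the high set, between -2.13 and -1.19 in the middle set and between -1.49 and 0.45 near the floor.

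The sets of null arrays differed in these genes. Using the high set alone, 8 of the 10 genes were lower than Fl/Fl at day 0 (14.3% of genes passed), 6 at day 2 (10.5%) and 7 at day 6 (23.1%). At day 4, 8 were lower and Lama1 was higher (24.5% of genes passed; Lama1 0.96, SE 0.23, adjusted p = 0.00818). The clearest day 0 difference in that fit was Col4a2, whose 2 high-set arrays read 12 and 18 against 159 and 196 (-3.27, adjusted p = 8.22e-05). Without the high set, 0 of the 10 passed on any single day (lowest adjusted p 0.0513, Lama1 at day 8), yet several differences kept their size. Nid1 was then at -2.50 at day 4 and -2.73 at day 6, Sparc at -1.10 at day 6, Col4a1 at -1.16 at day 4, and Lama1 at -1.60 at day 6. Others shrank, and Col4a2 at day 4 went from -2.65 to -1.81. At day 0, where 1 null array was left, Sparc went from -0.83 to -0.20 and Hspg2 from -0.66 to -0.06. Lama5 went from -0.84 to -0.16 there and Lamc1 from -0.69 to 0.04, while Col4a1 went from -1.22 to -0.97. At day 8, replicate 1 belongs to the middle set and replicate 2 reads near the floor. The array near the floor read above both Fl/Fl arrays for Lama5, Lamb1, Lamc1, Col4a1, Col4a2 and Nid1. The part of the array set and of the actin ratio in the genotype differences was not tested.

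**Figure D5:**
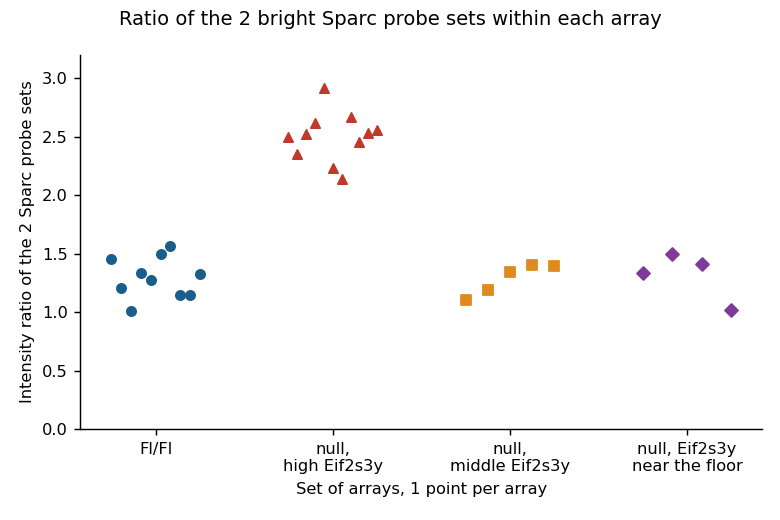
Ratio of the brightest to the second-brightest Sparc probe set within each of the 30 arrays, by set. The 11 arrays of the high set lie at 2.14 to 2.92 and the other 19 arrays at 1.01 to 1.57.

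Where a gene had several probe sets, those under 50 on every array were left out here. The second-brightest differed in the same direction as the brightest averaged over days, but the calls did not all match. Averaged over days the second probe sets of Col4a1 (-0.85, adjusted p = 0.000834), Nid1 (-1.09, adjusted p = 0.00209) and Hspg2 (-0.74, adjusted p = 0.000324) were lower in the arrays labelled null too. Those of Lama5 (-0.37, adjusted p = 0.0703) and Lamc1 (-0.32, adjusted p = 0.255) did not pass. For Sparc the size depended on the probe set, and the second-brightest gave -1.33 (SE 0.25, adjusted p = 0.000862). Within single arrays the brightest Sparc probe set divided by the second-brightest gave 2.14 to 2.92 in the high set, against 1.01 to 1.57 in Fl/Fl and 1.02 to 1.49 on the other null arrays. The corresponding Lamb1 pair split the same way, at 1.42 to 1.74 in the high set and at most 1.41 elsewhere. For these pairs the distance between Fl/Fl and the high set therefore differed with the probe set read.

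A wider list held 66 other genes: basement membrane components, matrix receptors and genes that process collagen. Of the 63 measured, 29 were lower in the arrays labelled null averaged over days and 0 higher, where 15.5% of all genes were lower; the median was -0.29 on the log2 scale. Leaving out the high set, 15 were lower and 1 higher, where 10.9% of all genes passed. From day 0 to day 8, 31 rose and 2 fell in Fl/Fl, and 31 rose and 3 fell in null, where 15.0% and 14.9% of all genes rose and 18.6% and 18.5% fell. Without the floor set, and so without 1 of the 2 null arrays of day 8, 16 rose and 4 fell (22.2% of all genes passed). Among 15 genes that process and secrete collagen, 11 were lower averaged over days. Serpinh1, the collagen chaperone of the endoplasmic reticulum, was lower by 1.64 (difference -1.64, SE 0.16, adjusted p = 5.35e-07), and Plod1, a lysyl hydroxylase, by 0.99 (-0.99, SE 0.15, adjusted p = 6.84e-05). Loxl1, a lysyl oxidase that cross-links matrix fibres, rose from 13 and 27 to 420 and 599 in Fl/Fl but was at 37 and 96 at day 8 in null (averaged difference -1.05, SE 0.18, adjusted p = 0.000296).

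Among 18 receptors, 8 were lower averaged over days, against the same 15.5% of all genes. The integrin alpha chains Itgav (-1.31, SE 0.17, adjusted p = 2.09e-05), Itga5 (-0.91, SE 0.13, adjusted p = 4.9e-05) and Itga6 (-0.60, SE 0.11, adjusted p = 0.000797) were among them, as was the dystroglycan gene Dag1 (-0.46, SE 0.09, adjusted p = 0.00128). Of 17 other basement membrane proteins 7 were lower, led by Tinagl1 (-2.25, SE 0.23, adjusted p = 1.01e-06) and followed by Frem2 (-1.23), the proteoglycan agrin (Agrn, -0.87) and the peroxidase Pxdn (-0.68), which cross-links type IV collagen. Smoc1, a Sparc relative, went the other way in time and fell by day 8 in both genotypes, by 2.65 in Fl/Fl and 2.71 in null (adjusted p = 1.78e-05 and 4.33e-06). Of 7 other collagens 3 were lower, among them Col4a5 (-0.89, SE 0.25, adjusted p = 0.0126), and of 6 other laminin chains 0 passed averaged over days. In Fl/Fl, the alpha chain gene Lama4 rose by 0.91 at day 8 (SE 0.17, adjusted p = 0.000198) and the beta chain gene Lamb2 by 2.24 (SE 0.48, adjusted p = 0.000933). On single days, and named after their values were seen, Lamb3 was lower in null at day 4 (-1.50, SE 0.17, adjusted p = 5.46e-06) and Lama4 at day 8 (-0.91, SE 0.17, adjusted p = 0.00263). Both lie near the floor: Lamb3 read 24 and 37 in Fl/Fl at day 4 against 7 to 10 in null, and Lama4 read 9 and 23 in Fl/Fl at day 8 against 6 on both null arrays.

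Markers of cell types also changed over the days, in differing directions, and their likeness to the courses of the 10 genes was not tested. All 10 markers of undifferentiated ES cells fell by day 8 in both genotypes, where 18.6% of all genes were called lower in Fl/Fl and 18.5% in null. The summed intensity of these markers at day 6 was 4501 to 4959 in Fl/Fl and 14219 to 21249 in null. The summed intensity of 10 fibroblast markers rose from 2516 to 3052 at day 0 to 33401 to 35178 at day 8 in Fl/Fl; in null it was 7658 to 15866 at day 6, and at day 8 it was 11959 on the middle-set array and 34015 on the array near the floor. Part of the list carried these sums: 6 of the 10 fibroblast markers were under 50 on all Fl/Fl arrays of day 0 and 4 on those of day 8. On all null arrays of day 6, 8 were under 50. Of those 10 markers 6 were lower in the arrays labelled null averaged over days, where 15.5% of all genes were lower. The 13 endoderm markers were all under 50 on every array of day 0. At day 6 they summed to 432 to 475 in Fl/Fl, 225 to 251 in the high set, 825 on the middle-set array and 1187 on the array near the floor. The order was not kept at day 8, with 740 to 820 in Fl/Fl, 534 on the middle-set array and 530 on the array near the floor. On null day 6 replicate 2, the array near the floor, Gata6 reached 416, Foxa2 283 and Sox17 138, and Gata4 reached 149 on null day 6 replicate 1. Dab2 reached 451, Thbd 68 and Ttr 46 on Fl/Fl arrays. Sox7, Hnf4a, Afp, Apoa1, Amn and Cubn did not exceed 17 on any array. In 8 endothelial markers the sums ran from 65 to 516. The part of these cells in the results was not tested, and in RNA from whole cultures fewer cells of a type and less RNA per cell cannot be told apart.

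The genes most like 3 of the members were found by Pearson correlation over the 10 group means of log2(intensity + 4), among 7717 other genes reaching a group mean of 100. For Lamc1 they were Tent2 (0.96), Acads, Htra1, Sh3bp1 and Slc35b2. Those of Col4a1 were Gucd1 (0.99), Cdon, Sidt2, Zfand3 and Prkar1a, and those of Sparc were Gpsm1 (0.99), Mmp14, Rnf128, Elovl1 and Sdcbp. The courses of Lama1 and Nid2 were the least alike among pairs of the 10 genes (-0.27).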

How the data were processed

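The authors deposited probe set intensity on a linear scale, in whole numbers, 1 column per array; per the labels, biotin-labelled cRNA was made from total RNA. The sources used here do not name the normalization, background correction or summary method. Of 45101 probe sets, 34958 name 1 gene in the platform annotation, 932 name several and 9211 name none; the last 2 kinds were left out. Identifiers of 34754 matched the gene table of GRCm38.p6, and 0 symbols changed. Each gene's brightest probe set by mean log2 value was used (18194 genes), with no filter on low values. Values were log2(intensity + 4), 4 being the 5th percentile. limma 3.58.1 in R 4.3.3 fitted 1 mean for each of 10 groups over 30 arrays (20 residual degrees of freedom), with two-sided moderated tests, a moderated F test for change between days, and Benjamini-Hochberg adjustment over all genes at 0.05. The fit was checked on simulated data. Replicate numbers shared by groups were not taken as pairing the arrays, so no block was used. In null, replicates 3 to 5 of days 2, 4 and 6 all belong to the high set. The alternatives were other pseudocounts, normalizations, filters, probe set rules, array subsets and single arrays left out. In the wider list, genes are named from the 4 of each sublist and comparison with the smallest adjusted p. The genes and lists were chosen with earlier results of these data known.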

Additional observations from a re-analysis of the deposited data

Results flagged for a closer look

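Col4a1 read 889 in null day 4 replicate 2, far above the 594 to 624 of the other 4 arrays of that group; its gap to the next array was 0.878 of the group's log2 range. It was the 1 array so marked in 30 groups of 5 arrays checked, where chance marks about 1 in 20. The array is near the floor for Eif2s3y.

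The genotype difference changed between days for Lama1 (limma F test, adjusted p = 0.0104), which was lower in null at days 6 and 8 and not at day 4, and for Nid2 (adjusted p = 0.0142), which was lower at day 4 and, short of the threshold, higher at days 6 and 8. Without the high Eif2s3y set these adjusted p were 0.222 and 0.0648.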

How the results depend on the processing

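The scale of the values changed few calls: the count of genes lower at day 8 was 2 after quantile normalization, and 1 gene fell at day 2 in null when all probe sets of a gene were averaged. Fitted on the compared groups only, 0 of the 10 genes passed between genotypes at day 8, 0 at day 2 in Fl/Fl, 5 at day 6 in null and 1 at day 8 in null.

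The choice of null arrays moved most counts. The share of all genes that passed moved with the arrays used as well, so these counts do not compare the fits by themselves. The high Eif2s3y set alone gave 8, 6, 9 and 7 genes between genotypes at days 0, 2, 4 and 6, and 5 and 7 at days 2 and 4 against day 0 in null. Without it the counts were 4 averaged over days, 0 at days 4, 6 and 8 and in the F test, and 1, 1, 4 and 3 at days 2, 4, 6 and 8 against day 0 in null. The middle set alone has 1 null array per day, so its fit takes its spread from the Fl/Fl arrays and its counts are left out. Without the set near the floor, an alternative chosen after seeing the data, the counts were 2 at day 0 between genotypes and 4 at day 2 in null. That fit leaves 1 null array at day 8, so its day 8 counts are left out. In the middle set alone 24 of 110 values of single genes turned sign. Within null at day 6 these included Lama5 (-0.0554), Lamc1 (-0.64), Nid1 (-1.04) and Hspg2 (-0.21). At day 8 in null they included Lamc1 (-1.05) and Hspg2 (-0.0534). In the difference of changes they included Lamc1 (-1.22) and Nid1 (-1.85). The cause was not tested.

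With single arrays left out, the genotype counts ran from 7 to 9 averaged over days, 0 to 3 at day 0, 0 to 0 at day 2, 2 to 6 at day 4, 2 to 5 at day 6 and 0 to 6 at day 8. Against day 0 they ran from 0 to 2, 2 to 3, 4 to 6 and 5 to 6 at days 2, 4, 6 and 8 in Fl/Fl, and 2 to 3, 4 to 5, 5 to 8 and 3 to 8 in null. They ran from 0 to 1 for the difference of changes and 0 to 4 for the F test. With the replicate number as a block, the averaged count was 7: Lama5 (-0.32, adjusted p = 0.086) and Lamc1 (-0.27, adjusted p = 0.205) did not pass, and Lamb1 did (-0.51, adjusted p = 0.0273). The day 4 count in null was 5, and the other counts were those of the fit without the block; of 102 same-numbered pairs of arrays, 37 had deviations correlated above 0.1 (range -0.348 to 0.511), so the numbers are not taken as pairing. Pseudocounts of 1 and 32, centring on the 75th percentile and leaving out the dimmest 40% of genes kept every count of the 10 genes within 1.5 times its value. With 2 arrays in 6 of the 10 groups, small differences were not detectable. Values under 50, which include 20 of 30 arrays for Lama1, 7 for Col4a2 and 5 for Nid1, lie near the floor of the arrays.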
